A study of Mus musculus with 11 samples.

Results

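Pml, Sp100, Sumo2, Sumo3, Morc3, Usp7, Spop and Dek encode proteins of PML nuclear bodies, SUMO modifiers and other partners reported for Daxx. These 8 genes were taken by symbol from the 24421 genes of the deposited count table, and their transcripts were described in mouse embryos and oocytes with and without maternal Daxx. The 11 libraries came from 2-cell embryos and from MII oocytes, which are arrested in the second meiotic division. All females were homozygous for a floxed Daxx allele (Daxx f/f) of mixed C57BL/6J and 129/Sv origin, and were over 8 weeks old. Knockout females also carried the Zp3-cre transgene, whose promoter is active in growing oocytes, so loss of Daxx and presence of the transgene cannot be told apart. Knockout 2-cell embryos (Daxx f/f; Zp3-cre; m-z+) gave 2 libraries, since a first replicate was not analysed here, and control 2-cell embryos (Daxx f/f; m+z+) gave 3. Here m- and m+ stand for embryos without and with the maternal supply of Daxx, and z+ for an intact copy in the embryo's own genome. Knockout MII oocytes (Daxx f/f; Zp3-cre) gave 3 libraries and control MII oocytes (Daxx f/f) gave 3, all collected 20 hours after hCG. All females, those of the embryo libraries included, were treated with the hormones PMSG (5 IU) and hCG (5 IU). For the embryos, oocytes from females of both kinds were fertilised in vitro with sperm of JF1 males aged 8 weeks, and the embryos were taken 33 hours later. Stage and the JF1 paternal genome therefore cannot be told apart. Each library pooled 50 oocytes or 50 embryos, from 2 to 3 females.

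PML bodies are nuclear spheres built around the PML protein, which is modified by SUMO and recruits partners that bind SUMO, Daxx among them. SUMO2 and SUMO3 are small proteins attached to lysines of other proteins. In mammalian cells, DAXX together with ATRX places the histone variant H3.3 on chromatin, and its location in PML bodies depends on SUMO binding. The growing oocyte stores transcripts for the first divisions; in the mouse these are degraded while the embryo's own genome becomes active at the 2-cell stage.

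Library totals were 17978192 to 25308468 counts in embryos and 32582998 to 39798586 counts in oocytes. Daxx had 22.8 and 25.5 CPM (a gene's share of the library's counts, per 1000000) in knockout 2-cell embryos, against 37.3, 35.2 and 46.7 CPM in control 2-cell embryos. In MII oocytes it had 8.20, 8.40 and 7.83 CPM in knockout libraries, against 97.2, 94.2 and 86.2 CPM in control libraries. Counted over the whole gene, it was lower in every knockout library than in every control library of the same stage. The log2 change was -0.75 in embryos, which did not pass (adjusted p = 0.544 by edgeR), and -3.52 in oocytes, which did (adjusted p = 1.2e-11). All 7 markers of 2-cell embryos were detected in all embryo libraries, and 4 to 5 of them in each oocyte library. They summed to 553 to 584 CPM in knockout and 440 to 621 CPM in control 2-cell embryos. In MII oocytes they summed to 2.59 to 4.73 CPM in knockout and 2.54 to 3.07 CPM in control libraries. All 10 oocyte markers were detected in all libraries. The oocyte markers summed to 2163 to 2273 CPM in knockout 2-cell embryos, against 1674 to 2055 CPM in control 2-cell embryos, and 0 of 10 passed between these groups by edgeR, with 2 at an unadjusted p under 0.05 and a median log2 change of 0.18. Transcripts of 6 spermatid markers summed to 6.30 to 7.62 CPM in knockout MII oocytes, against 2.67 to 3.62 CPM in control MII oocytes. Among the 3 of them tested between these groups, Prm2 passed (log2 change 1.54, adjusted p = 0.00277 by edgeR). Odf1 and Akap4 did not pass (0.43 and 0.25, adjusted p = 0.771 and 0.807 by edgeR). Transcripts of 15 granulosa and cumulus markers summed to 35.9 to 38.1 CPM in knockout MII oocytes, against 31.2 to 35.4 CPM in control MII oocytes. Of the 7 tested between these groups, 5 had a positive log2 change, 0 passed by edgeR and 1 was called higher by DESeq2. Ptgs2 had a log2 change of 1.25 (adjusted p = 0.130 by edgeR). Between embryo genotypes it had 1.51 (unadjusted p = 0.00398 by edgeR), and 0 of 7 passed. The part of these cells in any result was not tested. In pools of this kind, fewer cells of a type and less RNA per cell cannot be told apart.

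Sumo2 and Sumo3 are close relatives, and reads that match more than 1 gene limit the certainty of their values. The coding sequences of Sumo2-207 and Sumo3-201, from GENCODE M21 transcripts on GRCm38, were aligned over 285 bases, of which 236 (82.8%) were identical. The longest identical run was 17 bases. A stretch of 150 bases of each is shown to let the spacing of the differences be seen. It runs from base 43 to base 192 of the Sumo2 coding sequence and from base 40 to base 189 of the Sumo3 coding sequence, 5′ to 3′, and capitals mark the 27 bases that differ.
Sumo2: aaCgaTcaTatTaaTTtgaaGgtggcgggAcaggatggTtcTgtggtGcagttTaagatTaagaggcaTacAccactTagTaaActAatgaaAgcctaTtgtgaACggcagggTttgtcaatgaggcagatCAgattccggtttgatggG
Sumo3: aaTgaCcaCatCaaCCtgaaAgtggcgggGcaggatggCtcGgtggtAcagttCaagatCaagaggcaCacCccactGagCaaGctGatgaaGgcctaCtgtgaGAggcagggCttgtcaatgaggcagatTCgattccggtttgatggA
The aligned coding sequences thus shared no run of 50 bases, yet 29.1% of all 50-base windows of Sumo2 transcripts also occurred in transcripts of 14 other genes, 11 of them pseudogenes. For Sumo3 that share was 9.19%, all with 1 predicted gene. For Dek it was 17.1%, all with Kdm1b, a histone demethylase gene whose end overlaps the end of Dek on the opposite strand at chr13:47084767-47085279 (513 bases, GRCm38). The share was 7.07% for Sp100, 1.49% for Pml, 0.890% for Usp7, 0.0955% for Spop and 0 for Morc3. How the counting treated strand and shared reads was not given in the sources used here, so the values of Sumo2 and Dek in particular are uncertain to that extent. Kdm1b had 220 to 238 CPM in knockout 2-cell embryos and 165 to 252 CPM in control 2-cell embryos, against 277 to 300 CPM in knockout MII oocytes and 253 to 265 CPM in control MII oocytes. These levels are for the whole of Kdm1b, and the part of reads from the shared end in the values of Dek was not tested.

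Levels of different genes were compared per length, as RPKM (CPM per 1000 bases of the deposited gene width). In 2-cell embryos Dek stood first. It averaged 185 ± 7.45 RPKM in knockout embryos (SD, n = 2) and 219 ± 40.4 RPKM in control embryos (SD, n = 3), above 99.0% and 99.3% of the genes with a count. Usp7 came second and Morc3 next in both genotypes. Morc3 and Sumo3 overlapped in the knockout embryos, at 33.4 ± 7.27 and 27.2 ± 1.90 RPKM (SD, n = 2). Spop and Sumo3 overlapped in the control embryos, at 24.1 ± 1.48 and 23.7 ± 2.15 RPKM (SD, n = 3). Pml and Sumo2 overlapped in both genotypes, and Sp100 was lowest.

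In MII oocytes of both genotypes the order was Usp7, Sumo3, Dek, Spop, Morc3, Sumo2, Pml and Sp100, and no neighbours in that order overlapped. Usp7 averaged 115 ± 1.29 RPKM in knockout MII oocytes and 120 ± 1.62 RPKM in control MII oocytes (SD, n = 3 each), above 97.5% and 97.6% of the genes with a count. Sp100 averaged 0.310 ± 0.0229 RPKM in knockout MII oocytes and 0.362 ± 0.0201 RPKM in control MII oocytes (SD, n = 3 each). Sumo3 exceeded its relative Sumo2, with 57.0 ± 0.595 against 2.82 ± 0.0592 RPKM in knockout MII oocytes and 57.3 ± 2.77 against 2.55 ± 0.0793 RPKM in control MII oocytes (SD, n = 3 each). The SDs do not cover the uncertainty from sequence that Sumo2 shares with other genes, given above. Pml, the scaffold of the bodies, lay near the middle of the genes with a count, above 52.6% of them in knockout MII oocytes and 52.3% in control MII oocytes.

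**Figure D1:**
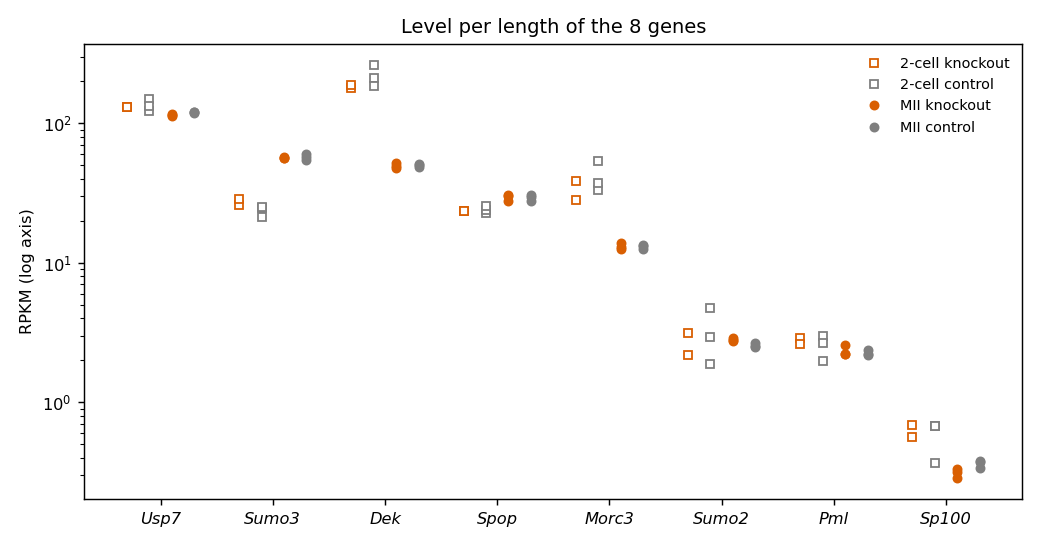
Level per length (RPKM, log axis) of the 8 genes in each of the 11 libraries, ordered by level in MII oocytes; open squares are 2-cell embryos, filled circles MII oocytes, orange knockout and grey control. Dek and Morc3 lie higher in embryos than in oocytes, Sumo3 lies lower, and the stages lie close together for Usp7, Pml and Sumo2.

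The main question of the design is what changed when Daxx was deleted in the growing oocyte. Only the maternal supply was removed from the m-z+ embryos, in which Daxx transcripts averaged 24.2 CPM, 60.8% of the control mean. The embryo comparison therefore does not describe embryos without Daxx. No transcript of the 8 genes passed the test between genotypes, in embryos or in oocytes. In 2-cell embryos, 0 of 8 were called by edgeR's quasi-likelihood test at an adjusted p under 0.05, against 0.026% of the 15414 genes tested. In MII oocytes, 0 of 8 were called, against 0.583% of 14235 genes. DESeq2 and limma-voom also called 0 of 8 at both stages, and 0 of 8 had an unadjusted p under 0.05 by edgeR, against 3.19% of all genes in embryos and 10.3% in oocytes. In embryos 1 of 8 had groups that did not overlap, Sumo3 being higher in the knockout; 17.8% of all genes tested were separated in either direction and 11.4% were higher. In oocytes the count was 3 of 8, Sumo2 being higher and Sp100 and Usp7 lower in the knockout, against 15.7% of all genes tested, 10.1% higher and 5.66% lower. The median log2 change of the 8 genes was -0.07 in embryos and -0.02 in oocytes, beside 0.00 in both over all genes tested.

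The precision differed between stages. In embryos, with 2 knockout libraries, the 95% intervals of the 8 genes lay between 46.3% and 185% of the control level. In oocytes those of Sumo3, Morc3, Usp7, Spop and Dek lay between 89.7% and 108% of the control level. Those of Pml, Sumo2 and Sp100, which had fewer counts, lay between 61.6% and 137%. A p that misses the threshold does not show equal levels, and changes within these intervals remain possible. The intervals are not limits of detection. That of Daxx in embryos was 45.5% to 78.1% of the control level, yet Daxx did not pass there (adjusted p = 0.544 by edgeR).

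**Figure D2:**
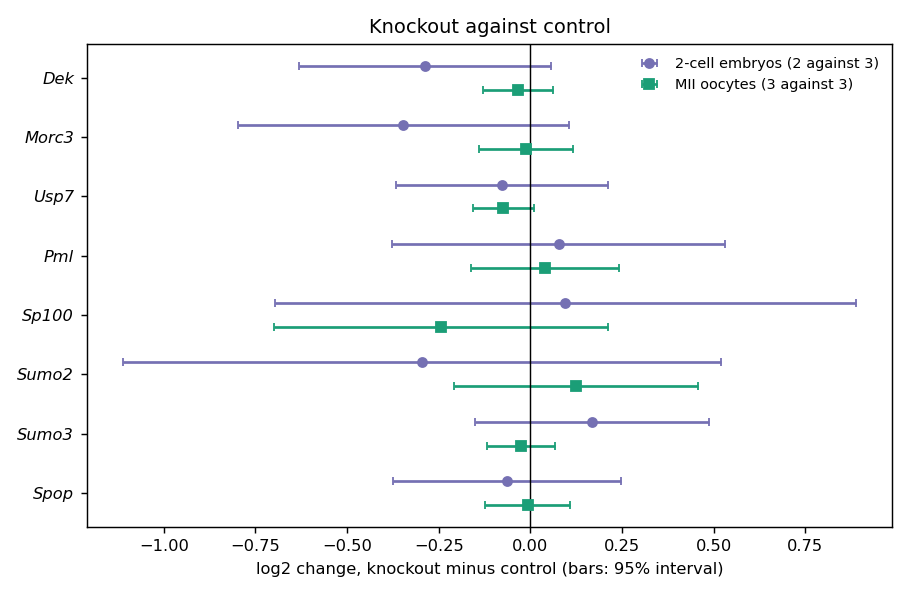
Log2 change, knockout minus control, of the 8 genes in 2-cell embryos (purple circles, 2 against 3 libraries) and MII oocytes (green squares, 3 against 3); bars are 95% intervals of the edgeR fit and the vertical line marks 0. All intervals include 0, and those of embryos are wider than those of oocytes for every gene.

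The stage contrast gave the larger changes. Dek and Morc3 rose and Sumo3 and Spop fell in 2-cell embryos relative to MII oocytes of the same genotype, and Sp100 rose in the knockout. Rises and falls here are relative to the other transcripts of a library, and amounts per oocyte or embryo were not measured. In the knockout 5 of 8 genes were called, 3 higher and 2 lower, against 80.2% of the 16592 genes tested, 42.5% higher and 37.7% lower. In the control 4 of 8 were called, 2 higher and 2 lower, against 83.1% of the 15577 genes tested, 43.1% higher and 40% lower. The 8 genes were thus measured in a contrast in which most genes changed. Transcripts of the granulosa and cumulus markers summed to 53.9 to 73.5 CPM in knockout embryos and 55.4 to 68.5 CPM in control embryos, above the oocyte sums. The single markers went both ways. In the knockout 2 were higher and 2 lower of 9 tested, and in the control 3 were higher and 4 lower of 8. The log2 changes (knockout, control) were 13.4 and 10.4 for Amhr2 and 7.99 and 7.03 for Tnfaip6. They were -2.66 and -2.34 for Cyp19a1 and -2.00 and -1.77 for Hsd3b1. Counts assigned to Lars2, a mitochondrial tRNA synthetase gene, made up 0.482% to 1.85% of each embryo library, against 0.142% to 0.201% of each oocyte library. Their part in the stage changes was not tested. Groups did not overlap for 7 of 8 genes in the knockout, against 86.9% of all genes tested, and for 5 of 8 in the control, against 85%. The median log2 change of the 8 genes was 0.15 in the knockout and 0.22 in the control, beside 0.09 and 0.07 over all genes tested.

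**Figure D3:**
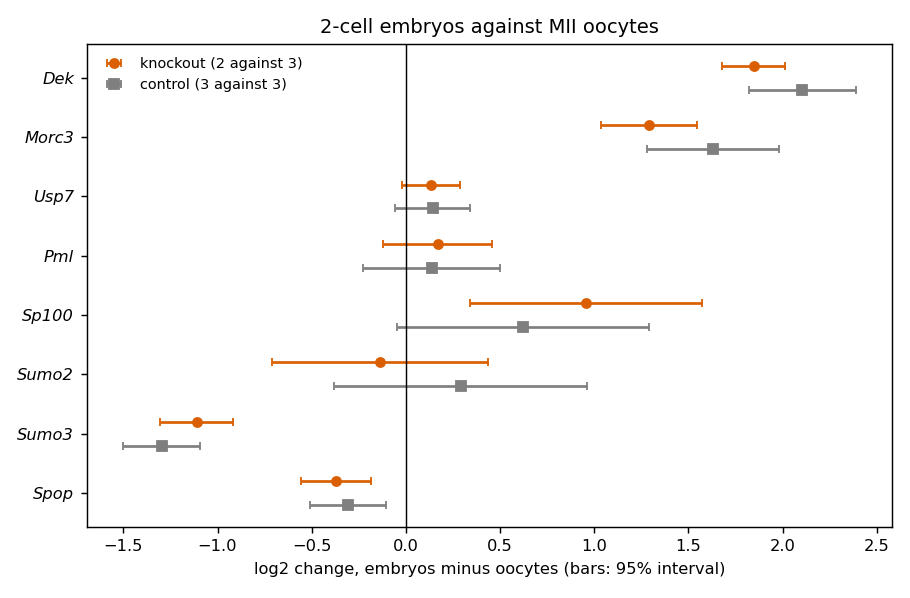
Log2 change, 2-cell embryos minus MII oocytes, of the 8 genes in the knockout (orange circles, 2 against 3 libraries) and the control (grey squares, 3 against 3); bars are 95% intervals of the edgeR fit and the vertical line marks 0. Dek and Morc3 lie to the right of 0 and Sumo3 and Spop to the left in both genotypes, and both intervals of each gene overlap.

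Pml (chr9:58217179-58249796, GRCm38.p6) encodes the protein that forms the shell of the bodies. In 2-cell embryos it had 18.1 and 16.4 CPM in knockout libraries, against 18.7, 12.4 and 16.8 CPM in control libraries. In MII oocytes it had 16.4, 14.1 and 14.1 CPM in knockout libraries, against 13.9, 13.9 and 15.05 CPM in control libraries. The genotypes overlapped at both stages, and the second control embryo library was the lowest of all 11. The log2 change, knockout minus control, was 0.08 with SE 0.22 in embryos (adjusted p = 1.00 by edgeR) and 0.04 with SE 0.09 in oocytes (adjusted p = 0.939). Between stages it was 0.17 with SE 0.13 in the knockout and 0.14 with SE 0.17 in the control, with adjusted p of 0.249 and 0.453. The control value was -0.01 without the first control embryo library, in which Pml was highest.

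Sp100 (chr1:85649948-85709998) encodes another constant component of the bodies and, like PML, is known in human cells as an interferon-inducible gene. In 2-cell embryos it had 2.13 and 2.61 CPM in knockout libraries, against 2.56, 2.56 and 1.39 CPM in control libraries. In MII oocytes it had 1.26, 1.20 and 1.09 CPM in knockout libraries, against 1.29, 1.41 and 1.43 CPM in control libraries. Control embryo library 3 lay within the range of control oocytes, and the other embryo libraries were higher than every oocyte library. The oocyte values rest on 41 to 56 counts per library. All 3 knockout oocyte libraries were lower than the 3 controls, but the log2 change of -0.24 (SE 0.21) did not pass (adjusted p = 0.782 by edgeR). In embryos it was 0.09 (SE 0.38, adjusted p = 1.00). Between stages Sp100 rose 1.94-fold in the knockout (log2 0.96, SE 0.27, adjusted p = 0.00931), whereas the control change of 0.62 (SE 0.31) had an adjusted p of 0.0784. The difference of the stage changes was 0.33 with SE 0.42 (adjusted p = 0.974). The knockout call was lost without knockout embryo library 3 (adjusted p = 0.0575), and the control change passed without control embryo library 3 (adjusted p = 0.00976) and with RLE size factors (adjusted p = 0.0459).

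Sumo2 (chr11:115523109-115536230) and Sumo3 (chr10:77606097-77618331) encode near-identical modifiers. In 2-cell embryos Sumo2 had 2.17 and 3.14 CPM in knockout libraries, against 4.73, 1.88 and 2.95 CPM in control libraries, which held its highest and its lowest value of all 11. In MII oocytes it had 2.88, 2.76 and 2.81 CPM in knockout libraries, against 2.49, 2.64 and 2.52 CPM in control libraries. All knockout oocyte libraries were above the controls, with a log2 change of 0.12 (SE 0.15, adjusted p = 0.864 by edgeR). The embryo change between genotypes, -0.30 with SE 0.39, became 0.12 without the first control embryo library. Its stage changes of -0.14 (SE 0.25) in the knockout and 0.29 (SE 0.31) in the control did not pass, with adjusted p of 0.637 and 0.389. The knockout value was 0.13 without the second knockout embryo library, and the control value was -0.11 without the first control embryo library.

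Sumo3 had 83.5 and 92.1 CPM in knockout 2-cell embryos, against 68.5, 80.1 and 80.8 CPM in control 2-cell embryos. In MII oocytes it had 182, 186 and 183 CPM in knockout libraries, against 185, 193 and 175 CPM in control libraries. Every embryo library was lower than every oocyte library, and the knockout embryos were above the control embryos. Sumo3 fell 2.16-fold between stages in the knockout (log2 -1.11, SE 0.09, adjusted p = 1.7e-06) and 2.46-fold in the control (log2 -1.30, SE 0.09, adjusted p = 9.0e-08). The knockout minus control change was 0.17 (SE 0.15, adjusted p = 1.00) in embryos and -0.03 (SE 0.04, adjusted p = 0.909) in oocytes.

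Morc3 (chr16:93832121-93876077) encodes an ATPase of the MORC family that gathers at PML bodies. In 2-cell embryos it had 165 and 121 CPM in knockout libraries, against 228, 142 and 159 CPM in control libraries. In MII oocytes it had 59.5, 54.1 and 55.1 CPM in knockout libraries, against 54.1, 57.4 and 56.5 CPM in control libraries. The stages were fully separated, and the genotypes overlapped at both. Morc3 rose 2.45-fold between stages in the knockout (log2 1.29, SE 0.11, adjusted p = 4.0e-06 by edgeR) and 3.09-fold in the control (log2 1.63, SE 0.16, adjusted p = 1.4e-06). Between genotypes the log2 change was -0.35 (SE 0.21, adjusted p = 1.00) in embryos and -0.01 (SE 0.06, adjusted p = 0.969) in oocytes. The embryo value was -0.09 without the first control embryo library.

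Usp7 (chr16:8688722-8757067) encodes a deubiquitinase that in human cells stabilises MDM2 and DAXX, among others. Its embryo levels were 880 and 874 CPM in knockout libraries, against 997, 821 and 891 CPM in control libraries. Its oocyte levels were 777, 781 and 764 CPM in knockout libraries, against 804, 794 and 815 CPM in control libraries. The genotypes overlapped in embryos, whereas all knockout oocyte libraries were below the controls. The oocyte log2 change of -0.07 (SE 0.04) had the smallest p of the 8 genes in that comparison (unadjusted p = 0.0744, adjusted p = 0.552 by edgeR). The embryo change between genotypes was -0.08 (SE 0.14), and 0.02 without the first control embryo library. Every embryo library was above every oocyte library, by a log2 change of 0.13 (SE 0.07, adjusted p = 0.098) in the knockout and 0.14 (SE 0.09, adjusted p = 0.167) in the control. These stage changes passed in some alternatives, 5 of 13 in the knockout and 2 of 14 in the control.

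Spop (chr11:95414083-95493410) encodes the substrate adaptor of a cullin-3 ubiquitin ligase, and human DAXX is among the proteins it binds. Its embryo levels were 73.0 and 72.4 CPM in knockout libraries, against 70.1, 73.6 and 79.1 CPM in control libraries. Its oocyte levels were 94.5, 93.1 and 85.3 CPM in knockout libraries, against 94.4, 90.9 and 85.5 CPM in control libraries. The genotypes overlapped at both stages, and all embryo libraries were lower than all oocyte libraries. Spop fell to 77.3% of the oocyte level in the knockout (log2 -0.37, SE 0.08, adjusted p = 0.00216 by edgeR) and to 80.8% in the control (log2 -0.31, SE 0.09, adjusted p = 0.00789). With RLE size factors the control change was -0.21 and its adjusted p 0.0513. Its knockout minus control change was -0.06 (SE 0.15, adjusted p = 1.00) in embryos and -0.01 (SE 0.05, adjusted p = 0.983) in oocytes.

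Dek (chr13:47084767-47107530) encodes a chromatin protein that binds histones and has been found together with DAXX in human cells. Its embryo levels were 484 and 512 CPM in knockout libraries, against 711, 567 and 497 CPM in control libraries. Its oocyte levels were 139, 134 and 129 CPM in knockout libraries, against 139, 137 and 131 CPM in control libraries. The first control embryo library was the highest, and control embryo library 3 lay between the knockout embryo libraries. Dek had the largest rise between stages of the 8 genes, 3.60-fold in the knockout (log2 1.85, SE 0.07, adjusted p = 2.2e-08 by edgeR) and 4.30-fold in the control (log2 2.10, SE 0.13, adjusted p = 2.4e-08). Over all genes tested, 75.0% had a lower log2 stage change in the knockout and 77.6% in the control. Between genotypes the change was -0.29 (SE 0.16, adjusted p = 1.00) in embryos and -0.03 (SE 0.04, adjusted p = 0.874) in oocytes. The embryo value was -0.11 without the first control embryo library.

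**Figure D4:**
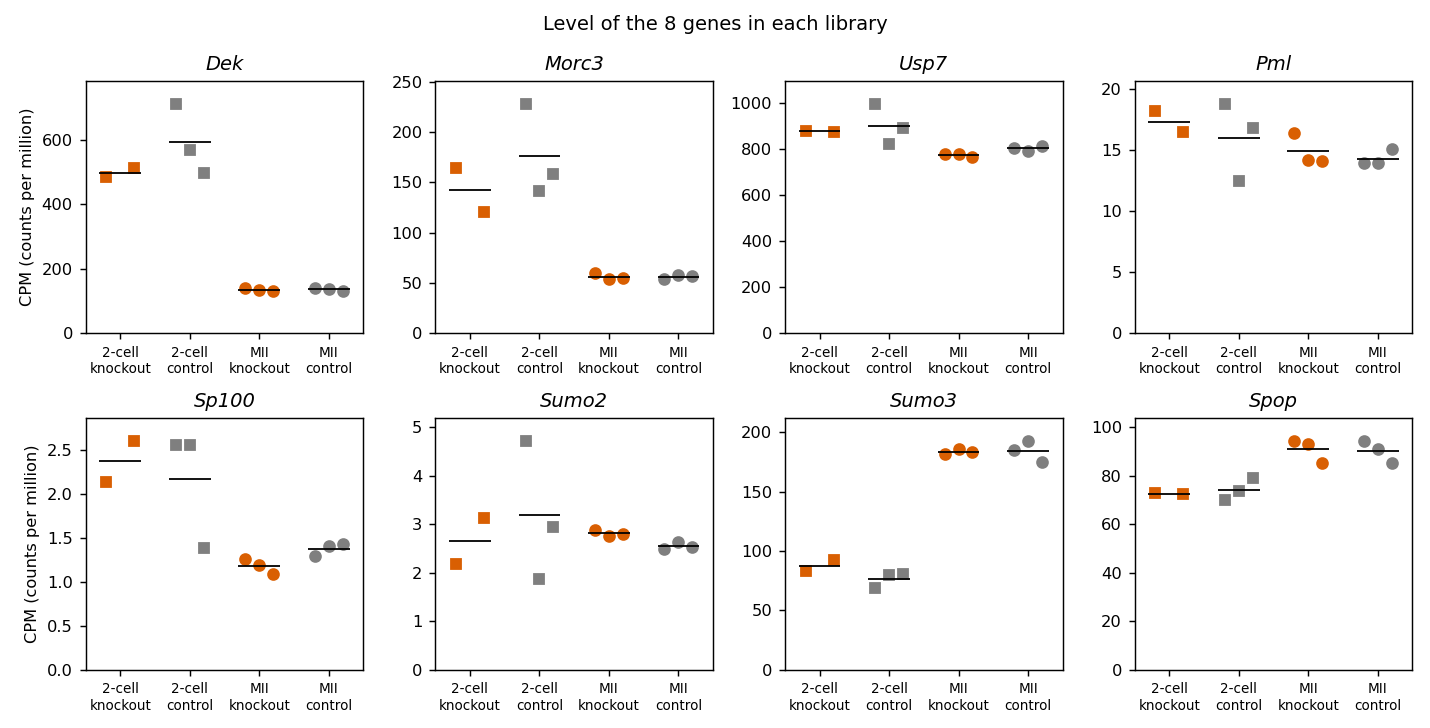
Level (CPM, linear axes from 0) of each of the 8 genes in every library; squares are 2-cell embryos, circles MII oocytes, orange knockout, grey control, and each horizontal line is a group mean. Dek and Morc3 are higher in embryos and Sumo3 and Spop are lower, and the genotypes overlap or lie close together at each stage.

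Whether the genotype changed the stage contrast was tested as a difference of effects, embryo minus oocyte, over all 11 libraries. Of the 8 genes 0 were called by edgeR, DESeq2 or limma-voom, against 0.0118% of 17018 genes by edgeR, and 0 had an unadjusted p under 0.05, against 5.41%. The log2 differences were -0.26 (SE 0.16) for Dek, -0.34 (SE 0.22) for Morc3, -0.43 (SE 0.42) for Sumo2 and 0.18 (SE 0.12) for Sumo3. Those of Sp100, Pml, Usp7 and Spop were 0.33, 0.03, -0.01 and -0.07, and the smallest adjusted p of the 8 was 0.936. This fit used 1 spread per gene for both stages, though replicates differed more in embryos than in oocytes. Its SE was below that of embryos alone for Sumo3 (0.12 against 0.15), Usp7 (0.12 against 0.14) and Spop (0.12 against 0.15). A difference cannot be known better than its embryo part, so these SEs are too small. The first control embryo library held the highest values of Dek, Morc3, Usp7, Sumo2 and Pml of all 11 libraries and the lowest of Sumo3 and, by a small margin, of Spop.

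Upstream sequence is given for the 4 genes that passed in both stage comparisons, to show what lies before their starts. Each line holds the 250 bases before the start annotated by RefSeq, GRCm38.p6, 5′ to 3′ on the gene's strand, and capitals mark a CCAAT motif (CCAAT, or ATTGG on the other strand). The annotated start of Dek lies 1309 bases inside the outermost end of the gene as given above, so its window lies within the gene span. For Sumo3 the table holds 3 starts, and the window shown is that of the outermost. The positions are chr13:47106222-47106471 on the minus strand for Dek, chr16:93831871-93832120 on the plus strand for Morc3, chr10:77605847-77606096 on the plus strand for Sumo3 and chr11:95413833-95414082 on the plus strand for Spop.
Dek: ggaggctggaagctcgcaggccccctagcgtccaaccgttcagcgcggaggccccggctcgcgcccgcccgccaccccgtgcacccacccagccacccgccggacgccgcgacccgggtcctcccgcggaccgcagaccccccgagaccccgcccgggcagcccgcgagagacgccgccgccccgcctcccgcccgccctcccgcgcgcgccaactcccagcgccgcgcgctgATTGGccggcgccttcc
Morc3: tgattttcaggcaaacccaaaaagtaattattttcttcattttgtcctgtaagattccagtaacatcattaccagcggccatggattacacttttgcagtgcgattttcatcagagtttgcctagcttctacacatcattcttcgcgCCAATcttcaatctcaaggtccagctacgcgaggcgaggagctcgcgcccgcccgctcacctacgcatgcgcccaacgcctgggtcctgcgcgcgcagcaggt
Sumo3: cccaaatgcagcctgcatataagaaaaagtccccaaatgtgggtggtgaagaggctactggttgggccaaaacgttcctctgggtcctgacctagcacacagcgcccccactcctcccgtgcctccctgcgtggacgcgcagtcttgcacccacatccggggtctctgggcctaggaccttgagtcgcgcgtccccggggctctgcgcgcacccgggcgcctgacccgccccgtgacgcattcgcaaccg
Spop: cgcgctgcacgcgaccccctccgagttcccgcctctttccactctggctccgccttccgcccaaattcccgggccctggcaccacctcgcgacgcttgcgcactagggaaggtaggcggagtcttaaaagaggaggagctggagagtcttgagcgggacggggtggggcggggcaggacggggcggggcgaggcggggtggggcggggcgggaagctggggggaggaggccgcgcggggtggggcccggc
The windows of Dek and Morc3, which rose, each held 1 CCAAT motif, and those of Sumo3 and Spop, which fell, held 0. Sumo2 and Usp7, with no stage change that passed, also held 1 each, and the start used for Usp7 lies 18725 bases inside the gene span. Over all 32536 windows of this length in the table, 33.8% held the motif on either strand. The Dek window held 41 CpG dinucleotides, that of Morc3 17, the window shown for Sumo3 20 and that of Spop 27, beside a median of 6 over all windows. The other windows of Sumo3 held 2 and 33 CpG dinucleotides and 0 CCAAT motifs. The interferon-stimulated response element and the gamma-activated site (TTCNNNGAA), searched on both strands, were found in 0 of the 8 genes' windows, those of Pml and Sp100 included. They occurred in 2.98% and 7.04% of all windows. A match is a description of these letters, and the absence of one says only that they are not in the window. A GC box (GGGCGG, or CCGCCC on the other strand) was found 5 times in the Dek window, 1 time each in those shown of Morc3 and Sumo3 and 5 times in that of Spop, and in 33.0% of all windows. It shared 0 bases with a CCAAT motif in these windows. A TATA box (TATAAA, or TTTATA on the other strand) was found in 0 of the 8 genes' windows, against 12.3% of all windows.

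Other genes of the same pathways were described through 6 lists with 84 genes besides Daxx. Between genotypes 0 of 82 tested in embryos and 0 of 81 in oocytes were called by edgeR, DESeq2 or limma-voom, and 2 and 5 had an unadjusted p under 0.05 by edgeR. Over all genes tested, 0.026% in embryos and 0.583% in oocytes were called, and 3.19% and 10.3% had an unadjusted p under 0.05. The median log2 change of the list genes was -0.06 in embryos and -0.03 in oocytes. The list gene other than Daxx with the smallest p in embryos was Gli3, a transcription factor listed with the substrates of SPOP. Its log2 change was 0.31 with SE 0.14 (adjusted p = 1.00). For the difference of effects 0 of 82 were called by the same tools, and 5 had an unadjusted p under 0.05 by edgeR, against 0.0118% and 5.41% of all genes tested. Between stages, 69 of 82 were called in the knockout and 72 of 82 in the control, against 80.2% and 83.1% of all genes tested.

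Of 26 genes of SUMO conjugation and removal, 17 rose and 4 fell in the knockout between stages, and 17 rose and 6 fell in the control, beside 42.5% higher and 37.7% lower, and 43.1% and 40%, over all genes. Among the SUMO ligases, Pias3 rose to 54.9 ± 2.47 CPM in knockout embryos (SD, n = 2), against 1.15 ± 0.083 CPM in knockout oocytes (SD, n = 3), a log2 change of 5.52 (SE 0.13). The control change was 5.46 (SE 0.15). Ranbp2, a nuclear pore ligase, rose by 3.80 (SE 0.11) in the knockout and 3.93 (SE 0.12) in the control. Senp2, a protease that removes SUMO, rose by 3.06 (SE 0.09) and 3.36 (SE 0.11). Pias1, Pias4 and Nsmce2, also ligases, fell, with log2 changes of -1.60, -0.89 and -1.90 in the knockout and -1.67, -0.83 and -1.82 in the control. The ligases of the list therefore changed in both directions.

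Of 19 other PML body genes tested, Daxx included, 12 rose and 6 fell in the knockout, where 80.2% of all genes were called, and 11 rose and 7 fell in the control, where 83.1% were. Hipk1, a kinase of the bodies, rose to 1397 ± 178 CPM in knockout embryos (SD, n = 2), against 5.31 ± 0.264 CPM in knockout oocytes (SD, n = 3), and to 1279 ± 64.4 CPM in control embryos, against 4.42 ± 0.658 CPM in control oocytes (SD, n = 3 each). Its log2 changes were 7.99 (SE 0.13) in the knockout and 8.15 (SE 0.13) in the control. The related kinase Hipk3 rose by 3.53 (SE 0.09) and 3.44 (SE 0.12), and the acetyltransferase Ep300 by 2.75 (SE 0.08) and 2.86 (SE 0.12). Asf1a, a histone chaperone, fell by 2.08 (SE 0.08) and 2.03 (SE 0.12) on the log2 scale. The p53 gene Trp53 fell, with log2 changes of -1.23 in the knockout and -1.03 in the control, as did the DNA repair gene Mre11a (-1.25 and -1.05) and Sp110, a relative of Sp100 (-0.75 and -0.93). Daxx itself went opposite ways, rising by 1.52 (SE 0.13) in the knockout and falling with a log2 change of -1.25 (SE 0.12) in the control. The difference of these changes was 2.76 (SE 0.16, adjusted p = 3.4e-07 by edgeR), with limits of design and spread given in the closing sections.

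The 3 tested relatives of Morc3 all rose in both genotypes, as did 42.5% of all genes in the knockout and 43.1% in the control, and 3 genes are too few to set against those shares. Morc2a changed by 2.23 (SE 0.08) in the knockout and 2.40 (SE 0.09) in the control, Morc1 by 1.77 (SE 0.08) and 1.70 (SE 0.15), and Morc4 by 4.16 (SE 0.30) and 3.21 (SE 0.26). Of 10 partners and substrates of USP7, 4 rose and 5 fell in each genotype, beside the same shares of 42.5% higher and 37.7% lower in the knockout and 43.1% and 40% in the control. Trip12, a ubiquitin ligase, rose by 0.97 in both, and Mdm4, the partner of MDM2, by 0.51 and 0.43. The maintenance methylation genes Dnmt1 and Uhrf1 fell, with log2 changes of -3.10 and -2.37 in the knockout and -3.07 and -2.66 in the control, and the checkpoint kinase Chek1 fell by 1.58 and 1.52.

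Of 19 genes of the SPOP ligase and its substrates, 8 rose and 7 fell in each genotype, where 80.2% of all genes were called in the knockout and 83.1% in the control. Cul3, the scaffold of that ligase, rose by 2.86 (SE 0.09) in the knockout and 3.00 (SE 0.10) in the control, while its adaptor Spop fell. Brd2, a substrate that reads acetylated histones, rose by 1.61 and 1.79, the histone methyltransferase gene Setd2 by 1.72 and 1.88, and the cullin regulator Cand1 by 1.33 and 1.38. Cops5, the catalytic subunit of the complex that strips NEDD8 from cullins, fell, with log2 changes of -3.15 (SE 0.11) and -3.29 (SE 0.12). Ube2m, which attaches NEDD8, fell by 1.92 and 1.97, Nae1 of the same pathway fell by 1.57 and 1.51, and the histone variant gene Macroh2a1 had log2 changes of -2.32 in the knockout and -2.499 in the control. Of 6 partners of DEK, 4 rose in the knockout, 5 rose in the control and 0 fell in either, beside 42.5% and 43.1% of all genes higher. Set, another histone-binding protein, rose by 3.67 (SE 0.10) and 3.88 (SE 0.14), Parp1 by 0.95 and 1.25, and the kinase subunit Csnk2a1 by 0.95 and 0.85.

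**Figure D5:**
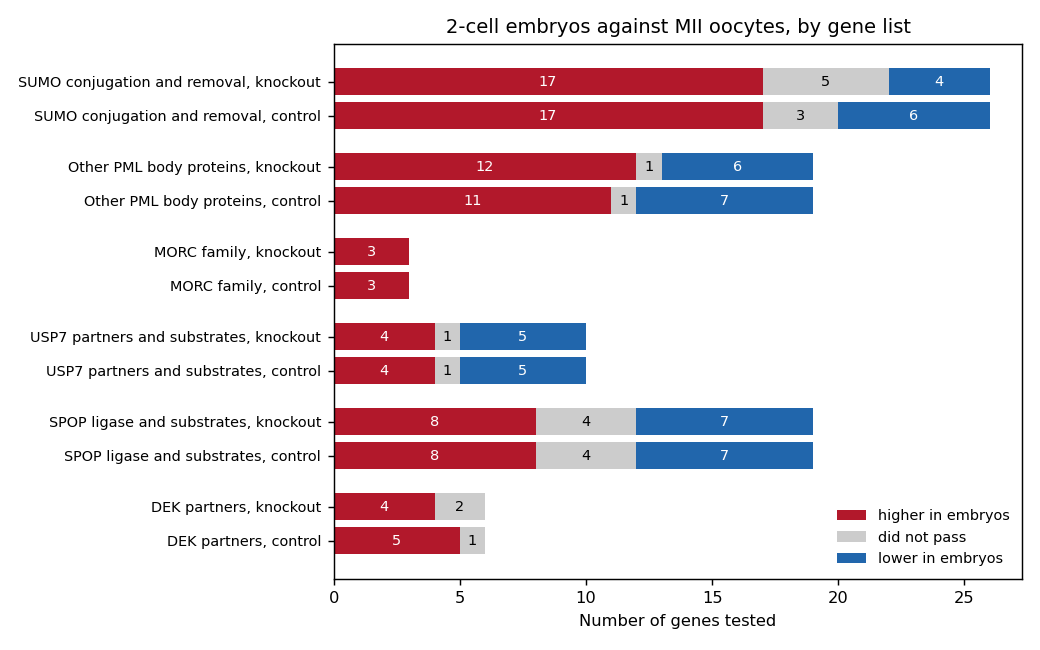
Number of genes tested in each pathway list that were higher (red), did not pass (grey) or were lower (blue) in 2-cell embryos than in MII oocytes, at an adjusted p under 0.05, for the knockout (upper bar of each pair) and the control. The 3 tested MORC relatives were all higher, and the USP7 and SPOP lists were divided between both directions.

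For each of the 8 genes, the genes with the most similar profile were sought among 8354 genes with a mean of at least 10 CPM, as Pearson's r of log2 CPM over the 11 libraries. The libraries form 2 stages, so r mainly reflects the stage contrast and is a description only. Dek was most like Usp16, Ctcf and Eif5, each with r = 0.999. Sumo3 was like Iqgap3 and Tspan33, with r of 0.999, and Morc3 most like Suz12, Rbm6 and Ints13, with r of 0.996, 0.995 and 0.994. For Spop they were Tuba1c, Aunip and Pdha1 (r of 0.985, 0.983 and 0.977), and for Sp100 Fmnl2, Vsig10l and Ttc37 (0.958, 0.951 and 0.947). For Usp7 they were Rnmt, Ptges3 and Sec63 (0.954, 0.951 and 0.940). Pml and Sumo2 had the loosest matches, Rtn4ip1, Arl15 and Ap1g1 with r of 0.910, 0.855 and 0.846, and Gpalpp1, H3c14 and Mynn with r of 0.877, 0.874 and 0.851.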

How the data were processed

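Libraries from pools of oocytes or embryos were prepared for SoLo RNA-Seq, per the labels' protocols. The authors deposited whole-number counts per gene for 24421 Entrez identifiers, with a width in bases per gene. Per the submitters' processing notes, STAR 2.5.0a, SAMtools and the build GRCm38 (mm10) were used; the counting program was not given in the sources used here. RefSeq names matched 24387 identifiers, and the other 34 held at most 0.0325% of any library's counts.

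From the counts, CPM used library totals and RPKM the deposited widths; a count of 0 allows 0.0754 to 0.167 CPM (3 counts), counting error only. No duplicate-read removal is recorded. Tests used edgeR 4.0.16 (R 4.3.3): filterByExpr, TMM factors, robust quasi-likelihood F test, Benjamini-Hochberg adjustment over all genes tested, threshold 0.05. All 8 genes passed the filter in every comparison. SE is the log2 change over the square root of F. Each genotype contrast was fitted within its stage, each stage contrast within its genotype, and the difference of effects over 11 libraries. Alternatives used DESeq2 1.42.0, limma-voom (limma 3.58.1), RLE factors, no or a stricter filter, the replicate number as a block, 1 fit over 11 libraries, each library left out, and library totals alone, the last chosen after seeing the data. The code was tested on simulated counts with known changes. False calls made up 4.93% to 10.6% of the calls, depending on the comparison, so the error rate could exceed the threshold. Between embryo genotypes 17.9% of 1.5-fold and 52.2% of 2-fold changes were recovered, and between oocyte genotypes 70.1% and 91.0%. Replicates of a group differed by more than sampling noise, with chi-square per degree of freedom of 4.86 to 34.3. The pools came from separate groups of females, per the labels.

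The 8 genes, the lists and the rule for named genes were chosen with earlier results of these data known. The rule named the 8 genes, Daxx, list genes that passed between genotypes (or the 2 with the smallest p), and up to 3 risers and 3 fallers per list between stages, by p. Kdm1b was named after its overlap with Dek was seen. Some genes that the rule or the profile search gave are not reported here.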

Additional observations from a re-analysis of the deposited data

Results flagged for a closer look

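The genotype effect on Daxx itself differed between stages by a test of the difference over all 11 libraries. The cross builds in such a difference, since the m-z+ embryos have a Daxx copy from the sperm and the oocytes do not. It is therefore a check of the design and no separate finding. The log2 difference, embryo effect minus oocyte effect, was 2.76 (SE 0.16, adjusted p = 3.4e-07 by edgeR). That SE is below the 0.19 of the embryo effect alone, as the fit used 1 spread for both stages. Both the SE and the adjusted p of the difference are therefore too small. The knockout minus control change was -0.75 in 2-cell embryos, which did not pass alone (adjusted p = 0.544), and -3.52 in MII oocytes, which did (adjusted p = 1.2e-11). None of the 8 genes met the same criterion, by edgeR, DESeq2 or limma-voom. Groups of 2 or 3 libraries are too small for a test of single outlying samples.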

How the results depend on the processing

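The intervals of the 8 genes were wider in embryos, with 2 knockout libraries, than in oocytes, and Sp100 and Sumo2 had the fewest counts. The count of the 8 genes called between genotypes was 0 under all 13 alternatives in embryos, 14 in oocytes and 18 for the difference of effects; between stages it was 4 to 6 of 8 in the knockout and 4 to 5 in the control. Dek, Morc3 and Sumo3 passed between stages in both genotypes under all alternatives. The number of all genes called in embryos, 4, was 10 with DESeq2, 2 with limma-voom, 32 with no low-count filter, 13 with all 11 libraries in 1 fit, 2 with library totals alone, and 0 to 8 with 1 library left out. In oocytes, 83 became 223 with DESeq2, 183 with no filter, 22 with all 11 libraries in 1 fit, and 21 to 157 with 1 library left out. For the difference of effects, 2 became 4 with DESeq2 and 1 to 3 with 1 library left out. With 1 knockout embryo library left, that library is assumed to vary like the other groups. The cause of these shifts was not tested.

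Signs changed where values lay near 0. With library totals alone, the oocyte changes of Morc3 and Spop were 0.00565 and 0.0118 and the difference of effects of Usp7 was 0.0133. With 1 library left out, the embryo changes ranged from -0.0648 to 0.226 for Pml, -0.17 to 0.27 for Sp100, -0.62 to 0.12 for Sumo2 and -0.131 to 0.019 for Usp7. The oocyte changes ranged from -0.035 to 0.086 for Pml, -0.0546 to 0.00523 for Sumo3, -0.0544 to 0.0207 for Morc3 and -0.0383 to 0.0299 for Spop. The difference of effects ranged from -0.11 to 0.17 for Pml and -0.0669 to 0.0754 for Usp7. The stage change ranged from -0.46 to 0.13 for Sumo2 in the knockout, from -0.115 to 0.54 for Sumo2 in the control and from -0.00951 to 0.275 for Pml in the control.

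The replicate numbers gave no clear sign of pairing, but 2 or 3 pairs per contrast are too few to exclude it. Deviations from group means correlated between same-numbered libraries at -0.20 and -0.07 across embryo genotypes and at -0.19 to 0.15 across oocyte genotypes. Across genotypes, 0 of 2 embryo pairs and 1 of 3 oocyte pairs correlated best with their own number. Across stages, 1 of 2 pairs did so in the knockout and 0 of 3 in the control. With the replicate block, 2 genes were called between embryo genotypes, the embryo changes of Sumo2 and Usp7 were 0.131 and 0.0184, and the difference of effects of Usp7 was 0.074.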
